A study of Mus musculus with 10 samples.

Results

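Enteroendocrine cells are scattered hormone-secreting cells of the gut epithelium, and 9 transcription factors that set up this lineage are described here in jejunum that has lost Pcyt1a. The 9 genes were Neurog3, Neurod1, Pax4, Pax6, Isl1, Insm1, Nkx2-2, Rfx6 and Lmx1a. They were chosen by name, and each was read from the probe set (the group of probes that reads out a gene on the array) whose only gene symbol is that gene. All 9 had 1 such probe set, so they make up 9 of the 22180 genes tested.

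The series holds 5 samples from female mice of the genotype Pcyt1aLoxP/LoxP;VilCreERT2, called knockout, and 5 from female Pcyt1aLoxP/LoxP mice, called control. Pcyt1a encodes the rate-limiting enzyme of phosphatidylcholine synthesis from choline. VilCreERT2 is a Cre recombinase that tamoxifen activates, driven by the promoter of villin, so that deletion is aimed at gut epithelium and not at the rest of the gut wall. Mice of both genotypes were 10 to 12 weeks old, carried the LoxP-flanked allele on both copies, were given tamoxifen over 5 days and fasted overnight after 4 days on a high fat diet. Only the knockouts carried the Cre, so effects of the recombinase itself and of the loss of Pcyt1a cannot be told apart. Each array was made from a 3 cm piece of whole jejunal wall. The labels number the knockouts 1 to 5 and the controls 6 to 10 and do not state that each array is a separate mouse, so the p-values reflect sample-to-sample spread, which may be technical. The series text mentions re-feeding after the fast, whereas all sample labels describe the fasted state, and the source label of the controls repeats that of the knockouts, against their titles and genotype.

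These factors act at different steps as an endocrine cell forms. In secretory progenitors of the crypt, release from Notch signalling lets Atoh1-positive cells switch on Neurog3, a basic helix-loop-helix factor without which mice make no intestinal enteroendocrine cells. Neurog3 is on only briefly and is followed by Neurod1 and Insm1. Pax4, Pax6, Isl1, Nkx2-2, Rfx6 and Lmx1a help to choose and maintain particular hormone-producing fates. Basic helix-loop-helix factors such as Neurog3 and Neurod1 bind the E-box, CANNTG, which reads as the same pattern on both strands. RefSeq promoters of GRCm38.p6, from 250 bases before to 50 bases after a gene's start, were matched by symbol for 7 of the 9 genes, not for Insm1 and Pax4. The promoters of 3 genes are shown with every E-box in capitals: Neurog3 as the head of the cascade, Neurod1 because its strand bears on a result below, and Nkx2-2 because it held the most E-boxes.
Neurog3, chr10:62132840-62133139, plus strand: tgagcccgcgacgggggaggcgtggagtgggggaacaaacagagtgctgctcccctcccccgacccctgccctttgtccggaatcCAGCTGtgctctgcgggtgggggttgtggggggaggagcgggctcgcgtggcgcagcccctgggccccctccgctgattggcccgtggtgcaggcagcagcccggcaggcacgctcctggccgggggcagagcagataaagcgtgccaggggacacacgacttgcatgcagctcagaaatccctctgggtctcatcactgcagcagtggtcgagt
Neurod1, chr2:79456587-79456886, minus strand: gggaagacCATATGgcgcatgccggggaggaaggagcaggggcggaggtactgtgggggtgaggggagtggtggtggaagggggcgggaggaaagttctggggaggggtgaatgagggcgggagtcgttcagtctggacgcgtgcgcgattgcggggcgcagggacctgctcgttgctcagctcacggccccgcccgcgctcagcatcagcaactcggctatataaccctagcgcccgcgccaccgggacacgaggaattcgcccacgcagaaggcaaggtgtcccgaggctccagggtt
Nkx2-2, chr2:147186353-147186652, minus strand: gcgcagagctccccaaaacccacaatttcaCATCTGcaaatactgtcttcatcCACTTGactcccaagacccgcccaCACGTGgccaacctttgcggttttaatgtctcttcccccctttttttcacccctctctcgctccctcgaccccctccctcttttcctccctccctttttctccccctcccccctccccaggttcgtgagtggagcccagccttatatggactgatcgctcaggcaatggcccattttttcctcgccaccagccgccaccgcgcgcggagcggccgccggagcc
The Neurog3 and Neurod1 promoters held 1 E-box each, and the Nkx2-2 promoter held 3, of which the first is CAGATG read on the other strand. An E-box occurred in 72.3% of 32851 promoters of the same length, 3 or more in 17.6%, and CAGATG on either strand in 17.2%. These matches describe letters in a window and not binding.

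None of the 9 transcription factors passed the threshold between knockout and control (limma, Benjamini-Hochberg adjusted p under 0.05 over all genes), whereas Sst, the somatostatin gene of enteroendocrine D cells, fell. In the same fit 0.0271% of genes were called. At an unadjusted p under 0.05, 1 of the 9 was lower, which was Pax4, and 0 were higher, against 5.56% of all genes lower and 8.29% higher. The groups overlapped for all 9, and they did not overlap for 2.60% of all genes. The median log2 fold change, knockout minus control, was -0.002 over the 9 genes and -0.014 over all genes, and 5 of the 9 had negative values against 53.2% of all genes. With 9 genes, 1 lower gene is close to these background shares. That count rested on single arrays: it was 0 when knockout 1, 2 or 3 or control 8 or 10 was left out, and 2 when knockout 4 (Pax4 and Rfx6) or control 7 (Pax4 and Lmx1a) was left out. Without knockout 2, 1 of the 9 was higher, which was Neurog3, and 452 of all genes were called.

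**Figure D1:**
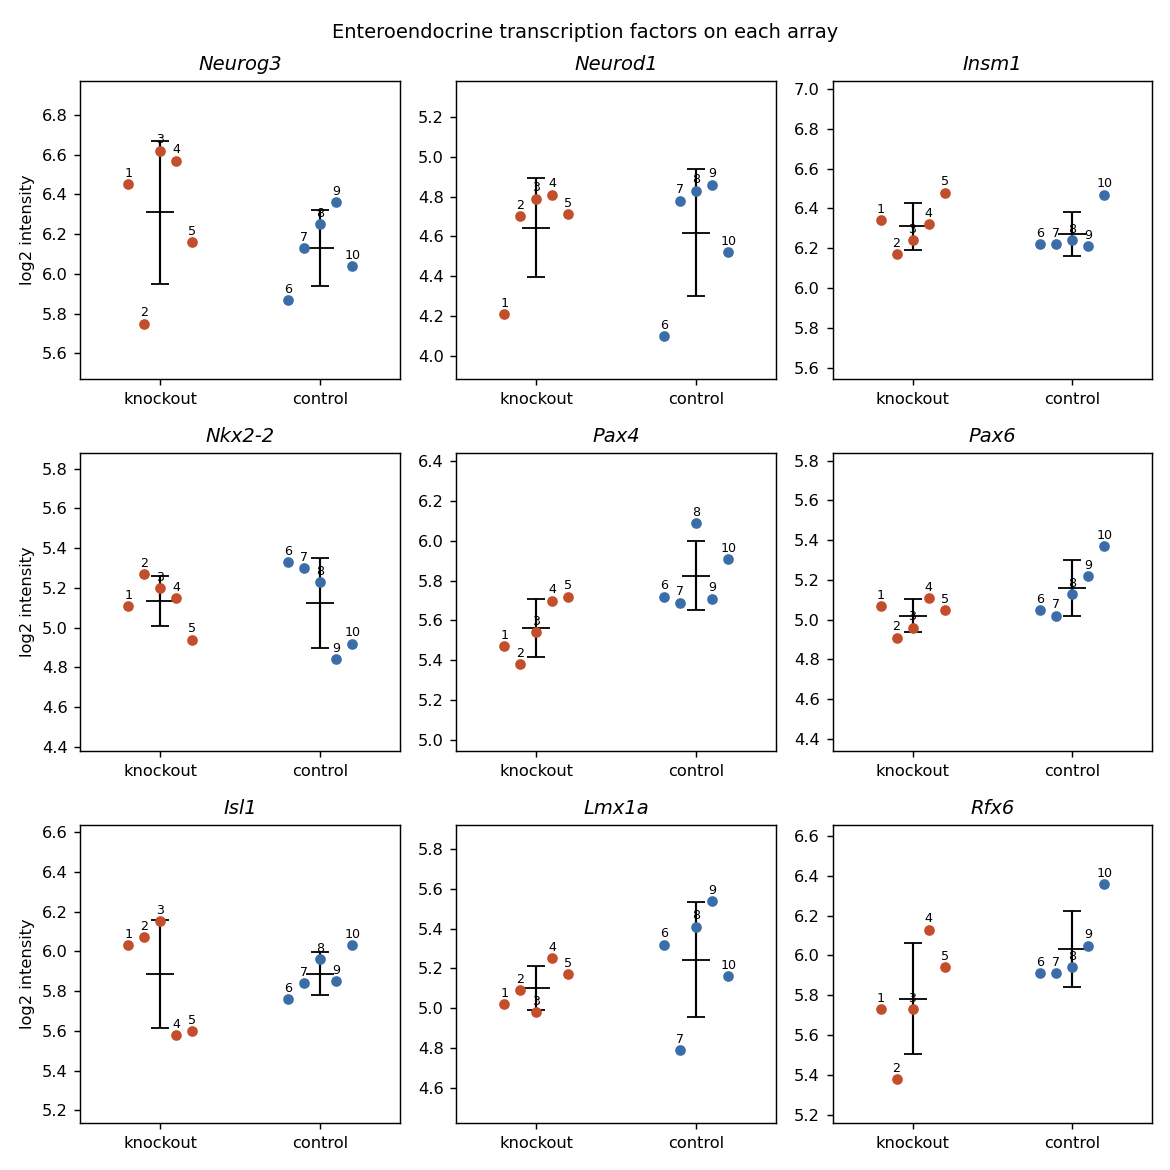
Log2 intensity of the 9 transcription factors on each array, knockout on the left and control on the right of each panel. Points are arrays with their numbers, horizontal bars are means and whiskers are SD (n = 5 per group), and every panel spans the same range of log2 units; the groups overlap in all 9 panels.

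Neurog3, which starts the programme, had a log2 intensity of 6.45, 5.75, 6.62, 6.57 and 6.16 on knockout arrays 1 to 5, against 5.87, 6.13, 6.25, 6.36 and 6.04 on control arrays 6 to 10. In all, 3 knockouts lay above every control, while knockout 2 lay below every control. The mean over the 5 knockouts was 6.31 ± 0.36, against 6.13 ± 0.19 over the 5 controls (SD, n = 5), and the log2 fold change came to 0.18 (SE 0.16, limma adjusted p = 0.666). Within each group the lowest Neurog3 value fell on the array lowest in Paneth cell markers. Paneth cells sit beside the stem cells at the crypt base, and their marker score, the mean log2 intensity of 8 marker genes centred over the 10 arrays, was -1.38 on knockout 2 and -1.47 on control 6, against -0.76 to 1.01 on the other arrays. With that score as a covariate the Neurog3 difference was 0.10 (SE 0.13), and without knockout 2 it was 0.32 (SE 0.13, limma adjusted p = 0.247). Leaving out knockout 3 brought it to 0.10 (SE 0.17), the lowest value with 1 array left out. All 8 measured Paneth markers had positive fold changes and 0 were called. The Paneth list was not the one closest to Neurog3. Over deviations from the group means, Neurog3 had Pearson r = 0.713 with the Paneth score and r = -0.759 with a score of enterocyte markers. It had r = 0.663 with a list of Notch and secretory fate genes and 0.626 with a list of other enteroendocrine regulators. Whether crypt content plays a part in the Neurog3 values was not tested. In whole tissue, fewer cells of a type and less RNA per cell cannot be told apart.

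Neurod1 and Insm1 follow Neurog3. Insm1, a zinc finger factor of endocrine progenitors, read 6.34, 6.17, 6.24, 6.32 and 6.48 in knockouts and 6.22, 6.22, 6.24, 6.21 and 6.47 in controls. Of the controls, 4 lay within 0.03 of each other and control 10 stood above them, close to the highest knockout at 6.48. The log2 fold change was 0.04 (SE 0.09), with a 95% interval of -0.16 to 0.23.

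The Neurod1 probe set read 4.21, 4.70, 4.79, 4.81 and 4.71 in knockouts, against 4.10, 4.78, 4.83, 4.86 and 4.52 in controls. Knockout 1 and control 6 were the low arrays, and the difference was 0.03 (SE 0.16, limma adjusted p = 0.961). The place of this probe set in the order of probe set numbers goes against its name. Neighbours in the order of probe set numbers mostly lie on a shared strand. The 10 nearest named probe sets in that order, counting both sides, all belonged to plus-strand genes, whereas Neurod1 lies on the minus strand of chromosome 2, as does the promoter shown above. Among 12021 probe sets whose 10 neighbours all lay on 1 strand, the named gene was on the other strand in 365, or 3.04%. Which strand the probes read was not tested, since probe sequences were not used here.

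A second probe set, annotated to both Neurod1 and its neighbour Cerkl, sits among 9 minus-strand and 1 plus-strand neighbours. It cannot be assigned to a single gene, and it was therefore fitted with all 34472 probe sets. It read 6.33, 6.56, 6.49, 6.53 and 6.50 in knockouts, against 6.70, 6.43, 6.91, 6.90 and 6.84 in controls. All knockouts lay below 4 of the 5 controls, and control 7 was the exception, the array with the highest smooth muscle marker score, 2.98 above the mean of the 10 arrays. The mean over the 5 knockouts was 6.48 ± 0.09, against 6.76 ± 0.20 over the 5 controls (SD, n = 5), and the log2 fold change came to -0.27 (SE 0.11). It did not pass over all probe sets, of which 0.00870% were called (limma adjusted p = 0.321). Its unadjusted limma p was 0.0246, and 6.11% of all probe sets were lower at an unadjusted p under 0.05. Without control 7 the groups did not overlap and the difference was -0.36 (SE 0.09, limma adjusted p = 0.190). The 2 probe sets that carry the Neurod1 symbol thus gave differences of 0.03 and -0.27, with intervals of -0.33 to 0.38 and -0.51 to -0.04.

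**Figure D2:**
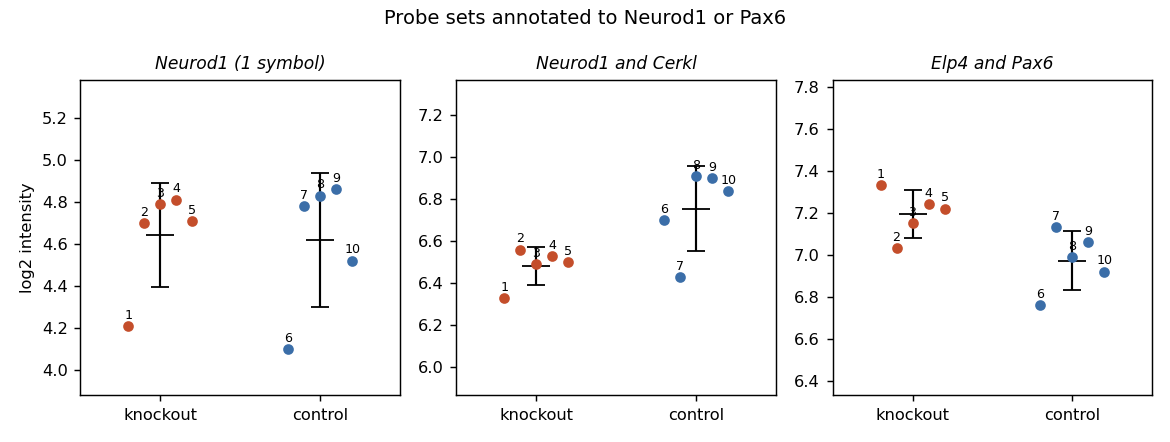
Log2 intensity on each array of the Neurod1 probe set with 1 gene symbol, the set annotated to Neurod1 and Cerkl, and the set annotated to Elp4 and Pax6, knockout left and control right. Points are arrays with their numbers, bars are means and whiskers SD (n = 5 per group); in the middle panel control 7, at 6.43, is the 1 control among the knockouts.

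Pax4 and Rfx6 had the lowest fold changes of the 9. Pax4 is a paired-box factor that favours the D cell and serotonin cell fates. It read 5.47, 5.38, 5.54, 5.70 and 5.72 in knockouts, against 5.72, 5.69, 6.09, 5.71 and 5.91 in controls. The 3 lowest values were all knockouts, and the 2 higher knockouts met the 3 lower controls between 5.69 and 5.72. The mean over the 5 knockouts was 5.56 ± 0.15, against 5.82 ± 0.17 over the 5 controls (SD, n = 5), and the log2 fold change came to -0.26 (SE 0.11, limma adjusted p = 0.300; two-sided exact permutation p = 0.0556). The 95% interval of the log2 fold change was -0.49 to -0.03.

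Rfx6 is a winged-helix factor needed for endocrine differentiation and, in the mouse, for Gip expression. It read 5.73, 5.38, 5.73, 6.13 and 5.94 in knockouts, against 5.91, 5.91, 5.94, 6.05 and 6.36 in controls. Knockout 2 was the lowest array and control 10 the highest, while knockouts 4 and 5 lay within the control range. The log2 fold change was -0.25 (SE 0.14, limma adjusted p = 0.456), and it was -0.15 (SE 0.13) without knockout 2 and -0.30 (SE 0.13) with the Paneth score as a covariate.

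Pax6, a paired-box and homeodomain factor linked to the glucagon and Gip genes, read 5.07, 4.91, 4.96, 5.11 and 5.05 in knockouts, against 5.05, 5.02, 5.13, 5.22 and 5.37 in controls. The ranges overlapped between 5.02 and 5.11, and the log2 fold change was -0.14 (SE 0.09, limma adjusted p = 0.526). It was -0.09 (SE 0.09) without control 10, the highest array. A second probe set carries the symbols of Pax6 and of Elp4, whose gene lies next to it on the opposite strand. Its 10 neighbours were all minus-strand genes, and Pax6 is on the plus strand. That set had a positive difference, with 7.33, 7.03, 7.15, 7.24 and 7.22 in knockouts against 6.76, 7.13, 6.99, 7.06 and 6.92 in controls. Its log2 fold change came to 0.22 (SE 0.10, limma adjusted p = 0.370 over all probe sets), and at an unadjusted p under 0.05 6.56% of all probe sets were higher.

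Isl1 and Lmx1a are LIM-homeodomain factors, the first found in many enteroendocrine cells and the second in serotonin cells. Isl1 read 6.03, 6.07, 6.15, 5.58 and 5.60 in knockouts, against 5.76, 5.84, 5.96, 5.85 and 6.03 in controls. Its group means were both 5.89 and its difference was -0.002 (SE 0.13), yet the knockouts lay on both sides of the controls, 2 below all of them and 2 above all of them. Lmx1a read 5.02, 5.09, 4.98, 5.25 and 5.17 in knockouts, against 5.32, 4.79, 5.41, 5.54 and 5.16 in controls, which made a difference of -0.14 (SE 0.13). Control 7 was the lowest array of all for Lmx1a, below every knockout, and without it the difference was -0.26 (limma adjusted p = 0.281). Without control 9 it was -0.07 (SE 0.13, limma adjusted p = 0.855).

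Nkx2-2, a homeodomain factor of several endocrine fates, read 5.11, 5.27, 5.20, 5.15 and 4.94 in knockouts, against 5.33, 5.30, 5.23, 4.84 and 4.92 in controls. The controls split into 3 higher and 2 lower arrays, and the knockouts lay between 4.94 and 5.27. The log2 fold change was 0.01 (SE 0.12). A set annotated to Nkx2-2 and its antisense gene Nkx2-2os was at -0.04 (SE 0.10). The 10 neighbours of that set were all plus-strand genes, whereas Nkx2-2 lies on the minus strand.

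Precision bounded what could be seen for each gene. The 95% intervals of 8 of the 9 log2 fold changes included 0, and over all 9 they reached from -0.56 for Rfx6 to 0.54 for Neurog3. Signal over background was low. As an estimate of background, 1105 olfactory receptor genes had a median of their mean log2 intensities of 3.25 and a 95th percentile of 5.40. Neurog3, Insm1, Rfx6, Isl1 and Pax4 lay above that percentile, while Neurod1, Pax6, Nkx2-2 and Lmx1a did not. For dim probe sets a fold change on the array understates the change in transcript, so the intervals bound the measured signal and not the transcript level.

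**Figure D3:**
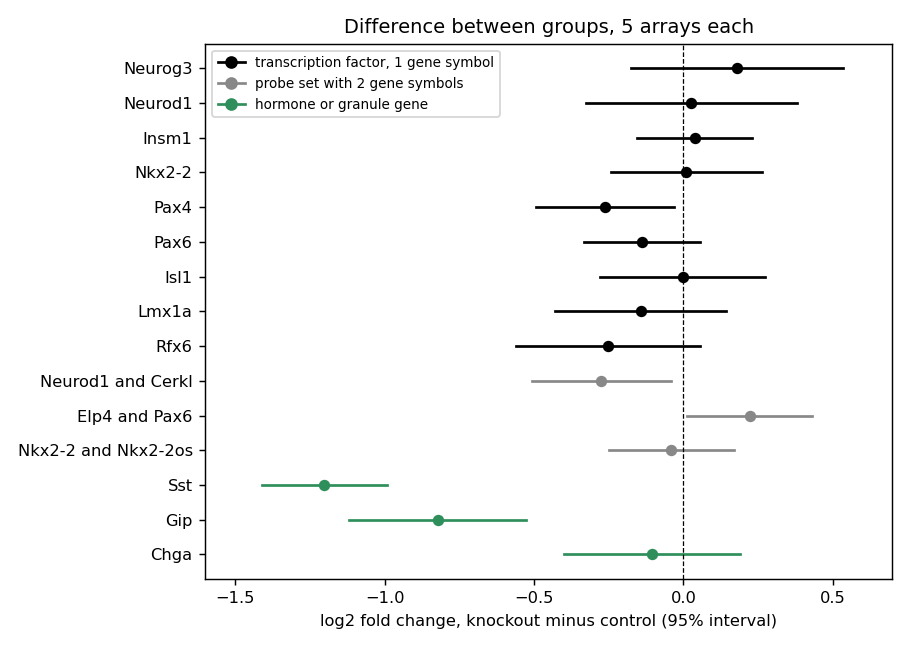
Log2 fold change, knockout minus control, of the 9 transcription factors (black), of 3 probe sets with 2 gene symbols (grey) and of Sst, Gip and Chga (green). Points are estimates and lines are 95% intervals from limma with 5 arrays per group; 8 of the 9 black intervals cross 0, and the Sst and Gip intervals lie below all of the black ones' estimates.

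Hormone genes of mature enteroendocrine cells were set beside them in the same fit. Sst read 8.95, 9.34, 9.37, 9.25 and 9.05 in knockouts, against 10.41, 10.42, 10.35, 10.44 and 10.35 in controls, so that the groups lay far apart. Its log2 fold change was -1.20 (SE 0.10, limma adjusted p = 3.483e-04), with an interval of -1.41 to -0.99. Gip was at -0.82 (SE 0.14, limma adjusted p = 0.0728) with groups that did not overlap, and Chga, which encodes the granule protein chromogranin A, at -0.10 (SE 0.13). Gip passed without knockout 2 (limma adjusted p = 0.0269) and without knockout 4 (limma adjusted p = 0.0486), and with the Paneth score as a covariate (limma adjusted p = 0.0302). It did not pass with any other single array left out, and was farthest from passing without knockout 1 (limma adjusted p = 0.271). The interval of Sst lay below the intervals of all 9 factors. Differences between the fold changes of Sst and the factors were not tested, and a fold change on 1 probe set is not on the same scale as that on another. Of 17 measured genes of the hormone and serotonin list, 1 fell and 0 rose, with a list median of -0.27 and 13 negative values. Of 17 measured genes for granules and hormone processing, 0 were called and all 17 were negative, with a median of -0.20. The 3 with the smallest p were Scg3 (-0.73, SE 0.18), Ptprn (-0.34, SE 0.13) and Rimbp2 (-0.28, SE 0.12), granule or release-site genes. Scg3 had a mean of 5.392, just below the background percentile of 5.398, which limits what its values can show. With the Paneth score as a covariate Scg3 passed (-0.84, limma adjusted p = 0.0208), and with the neuron and glia score it was at -0.57 (limma adjusted p = 0.136) and Ptprn at -0.20. Without the 3 arrays highest in smooth muscle, Scg3 was at -0.49, Ptprn at -0.20 and Chga at 0.00083. The granule score, the mean log2 intensity of that list without centring, was highest on control 7 at 7.01, against 6.16 to 6.69 on the other arrays. Marker lists of tuft and goblet cells also had mostly negative values, whereas all 8 measured Paneth cell markers were positive, with a median of 0.38. All 8 measured tuft cell markers were negative, with a median of -0.42, and 4 were lower at an unadjusted p under 0.05. Their score was 5.91 to 6.19 in knockouts and 6.24 to 6.54 in controls, so that the groups did not overlap. Of 7 goblet cell markers 5 were negative, with a median of -0.28, and 4 were lower at an unadjusted p under 0.05. Their score was 11.42 to 11.83 in knockouts and 11.65 to 12.02 in controls. In both lists 0 genes were called and 2 had groups that did not overlap, lower in knockouts. By the same unadjusted cut-off, 5 of the 17 hormone and serotonin genes fell and 0 rose. Of the 17 granule genes, 3 fell and 0 rose by it. Groups lay fully apart, with knockouts below, for 2 hormone genes and 0 granule genes. Among all genes, 5.56% fell by that cut-off, and 2.60% had groups without overlap in either direction. The part of tuft, goblet and Paneth cells in the hormone and granule values was not tested.

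Of 16 genes of the Notch and secretory fate list, which holds Notch pathway genes and factors of several secretory lineages, 0 were called and 8 had negative values, with a median of 0.005. Id1, an inhibitor of basic helix-loop-helix factors, had groups that did not overlap. It read 8.39, 8.56, 8.24, 8.50 and 8.60 in knockouts, against 8.71, 8.63, 8.91, 9.12 and 8.82 in controls, which made a difference of -0.38 log2 units (SE 0.11, limma adjusted p = 0.182). The Notch ligand gene Dll1 was at -0.18 (SE 0.09), the receptor gene Notch1 at 0.13 (SE 0.08) and Klf4, a factor of goblet cell differentiation, at -0.08 (SE 0.16). Atoh1, a factor of secretory progenitors that lies outside the naming rule and was added with its value known, was at -0.07 (SE 0.18).

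Among 17 measured genes of a list of other endocrine regulators, 0 were called and 12 were negative, with a median of -0.03. Sox4, an SRY-related factor of endocrine progenitors, had the smallest p. It read 7.20, 6.40, 7.34, 7.46 and 7.13 in knockouts, against 6.20, 6.61, 6.37, 6.85 and 6.63 in controls. All knockouts except knockout 2 lay above every control, and knockout 2 lay among them. The log2 fold change was 0.57 (SE 0.19, limma adjusted p = 0.211). Without knockout 2 it was 0.75 (SE 0.14) and passed the threshold (limma adjusted p = 0.0257), as it did without both knockout 2 and control 6 (0.67, SE 0.12, limma adjusted p = 0.0339). In the fit without knockout 2, 452 of all genes were called. With the Paneth score as a covariate the Sox4 difference was 0.46 (SE 0.12, limma adjusted p = 0.105) and did not pass. With the mean of all Sox4 probe sets in place of the brightest it was 0.32 (SE 0.19, limma adjusted p = 0.498). Like Neurog3, Sox4 was lowest on knockout 2 among knockouts and on control 6 among controls. The next genes of that list, the corepressor gene Rcor2 (0.16, SE 0.11) and the transcriptional corepressor gene Runx1t1 (-0.20, SE 0.13), did not pass, and Tox3, the brightest, was at -0.03 (SE 0.12). Without control 7, Runx1t1 was at -0.09 (SE 0.11).

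Within the groups Pax6 and Rfx6 varied together from array to array, and no other pair of the factors passed an adjusted p under 0.05. Deviations from the group means were correlated over the 10 arrays for all 36 pairs of the 9 genes, with exact two-sided p-values from all 14400 rearrangements within groups. Pax6 and Rfx6 gave Pearson r = 0.828 and Spearman rho = 0.902 (exact permutation p = 0.00111 and 8.33e-04, adjusted over the 36 pairs 0.0400 and 0.0300), and r = 0.804 without the 2 arrays farthest from the median of Pax6. Insm1 gave r = 0.770 and rho = 0.648 with Rfx6 (exact permutation p = 0.0228 and 0.0650, adjusted 0.205 and 0.339; r = 0.726 without 2 arrays). Nkx2-2 went against Pax6, with r = -0.794 and rho = -0.842 (exact permutation p = 0.0227 and 0.0108, adjusted 0.205 and 0.130; r = -0.733 without 2 arrays). Pax6 and Nkx2-2, with means of 5.09 and 5.13, lay below the background percentile of 5.40, which limits what their correlations can show. Pax6, Rfx6 and Insm1 were each lowest on knockout 2 among the knockouts and highest on control 10 among the controls. The macrophage marker score ran the other way, at 7.56 on knockout 2, the highest of the 10 arrays, and 6.56 on control 10, the lowest, against 6.64 to 7.24 on the others. Among the lists scored it had the r largest in size with Pax6 (-0.697), Rfx6 (-0.775) and Insm1 (-0.692). For Nkx2-2 the Notch and secretory fate score was larger in size, at r = -0.821 against 0.771 for the macrophage score. All 8 macrophage markers had positive fold changes and 0 were called. At an unadjusted limma p under 0.05, 3 of them were higher, against 8.29% of all genes. Whether tissue makeup plays a part in these deviations was not tested.

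**Figure D4:**
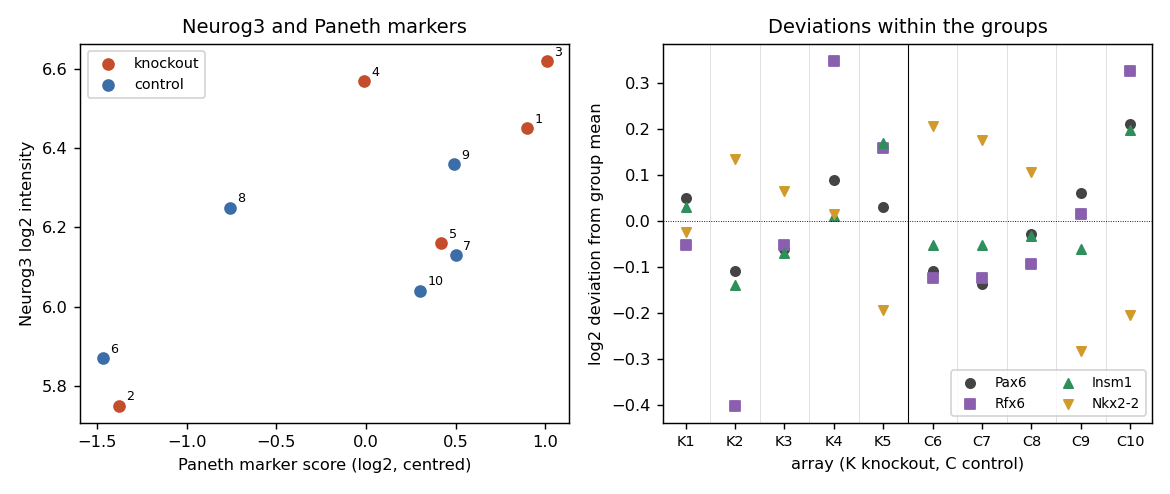
Left, Neurog3 log2 intensity against the Paneth marker score on each of the 10 arrays, with array numbers; knockout 2 and control 6 are lowest on both axes. Right, deviation from the group mean of Pax6, Rfx6, Insm1 and Nkx2-2 on each array, in log2 units; Pax6, Rfx6 and Insm1 are all low on knockout 2 and high on control 10.

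The genes whose within-group deviations were most like those of a factor were listed for the 5 factors above the background percentile, among genes at least as bright. With Neurog3 these were Mrps30 (r = 0.979), Nop9 (r = 0.970) and Samm50 (r = 0.968), the highest of 9543 genes. With Rfx6 they were Ttc23 (r = 0.961), Ilkap (r = 0.935) and AY358078 (r = 0.927), and with Insm1 Wbp11 (r = 0.971), Tcl1b1 (r = 0.912) and Cracr2a (r = 0.912). With Pax4 they were Cfap73 (r = 0.924), Nvl (r = 0.921) and Arl14ep (r = 0.895), and with Isl1 Slc25a20 (r = 0.942), an immunoglobulin kappa variable segment (r = 0.924) and Abcg2 (r = 0.904). Each value is the top of a search over 9311 to 11583 genes on the same 10 arrays and describes likeness on these arrays alone.

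Facts of the whole series bear on these values as follows. Pcyt1a fell to 7.46 ± 0.25 in knockouts, against 9.39 ± 0.17 in controls (SD, n = 5), by a log2 fold change of -1.93 (limma adjusted p = 9.577e-05). Median log2 intensity over the tested genes was 5.77 to 5.89 on all arrays, and precision is limited by the number of arrays. Enterocyte markers were bright on every array, with a score of 12.76 to 13.03 and 0 of 10 called. Markers of pancreas, where most of these factors also act, scored 4.66 to 4.93 with 0 of 7 called, below the background percentile. Markers of enteric neurons and glia were negative for 14 of 15 genes with 0 called, and their score was 5.57 to 5.87 in knockouts and 5.53 to 6.27 in controls, the highest again on control 7. Of these markers, Elavl4, Gfap, Nos1, S100b, Sox10, Tubb3 and Vip had means below the background percentile, while Erbb3 had a mean of 11.37. That limits what this score can show. Smooth muscle markers were negative for 7 of 8 genes with 0 called, and their score was 6.85 to 8.47 in knockouts and 6.35 to 10.53 in controls. B and plasma cell markers were negative for 5 of 6 genes with 0 called, with a score of 5.98 to 6.40 in knockouts and 5.78 to 7.67 in controls. With the neuron and glia score as a covariate Pax4 was at -0.34 (SE 0.10, limma adjusted p = 0.169).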

How the data were processed

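RNA from 10 jejunal samples was hybridised to Affymetrix whole-transcript arrays. The intensities the authors deposited are on the linear scale and come from Expression Console (Affymetrix, version 1.4.1.46) by the RMA method, as the submitters' processing notes record. RMA subtracts background, makes array distributions equal and condenses probes. The genome build and probe annotation are not given in the sources used here. Log2 was taken of 34472 probe sets. The platform table gave 1 symbol for 23521, several for 1814 and none for 9137, and 21994 of the 22180 genes matched RefSeq gene IDs. Where a gene had several probe sets the brightest was kept.

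Groups came from titles, and no batch is labelled. Group differences were fitted in R 4.3.3 by limma 3.58.1 (lmFit, eBayes, two-sided), with Benjamini-Hochberg adjustment over all genes. On simulated data of 22180 genes with 200 changed, log2 changes of 0.5 were recovered in 32.4% of cases and changes of 1 in 93.4%. False calls made up 6.14% of the calls there. In the data 6 genes were called. An adjusted threshold is easier to reach when more genes change, so recovery in the fit to the data may be lower than these rates. The 9 genes, the lists and the tests were chosen with earlier results of these data known. The naming rule took all 9 genes, Pcyt1a, Sst, Gip and Chga, the called or otherwise 3 lowest-p genes and the brightest gene of each list, and the 3 genes most like each bright factor. Lists of other cell types are given by scores and counts. Alternatives were leaving out each array, centring, quantile normalization, intensity filters, probe set averaging, an intensity trend, array weights and marker scores as covariates.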

Additional observations from a re-analysis of the deposited data

Results flagged for a closer look

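Of 54 groups of 5 arrays, 3 held a value far from the other 4 (Dixon's test at 95%, which flags about 1 group in 20 by chance). They were Neurod1 at 4.21 on knockout 1, Insm1 at 6.47 on control 10 and Runx1t1 at 6.36 on control 7. Without knockout 1 the Neurod1 difference was 0.13, without control 10 the Insm1 difference was 0.09, and without control 7 the Runx1t1 difference was -0.09, against -0.20 on all arrays. None of these passed.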

How the results depend on the processing

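None of the 9 factors passed in any of the 23 refits, in which the lowest adjusted p was 0.169, for Pax4 with the neuron and glia score. Neurog3, Pax4, Pax6, Rfx6 and Lmx1a kept their sign throughout. Neurod1 changed sign in 4 of 21 refits, Isl1 in 7 of 23, Insm1 in 2 of 23 and Nkx2-2 in 5 of 22, all without a call. With 1 array left out, 0 to 2 factors were lower and 0 to 1 higher at an unadjusted p under 0.05. That lower count was 0 with median centring, with quantile normalization, and without knockout 2 and control 6. Over all genes, 6 were called, against 2 to 452 with 1 array left out. The count was 2 with median centring, quantile normalization, the neuron and glia score, or without the 3 arrays highest in smooth muscle. It was 218 with the Paneth score, 326 without knockout 2 and control 6, and 3 over all probe sets; the last 2 were chosen after seeing the data. The cause was not tested. The Neurod1 and Cerkl set ranged from -0.36 to -0.24 over 19 settings. No paired analysis was possible because the groups share no replicate numbers. Neurod1, Pax6, Nkx2-2 and Lmx1a lay near background, which limits what their values can show.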
